A study of Rattus norvegicus with 2 samples.

Results

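Genes of the interferon response and of antigen presentation were compared between the DRGs of both body sides in rats with a tumor in 1 tibia. DRGs house the somata of sensory neurons (SNs). They came from 4-week-old female SD rats in which 100000 IP-B12 cells, an osteolytic line from a rat lung carcinoma, had been placed in the marrow of the right tibia. RNA was isolated 14 days later, and 1 array was hybridized for the tumor side (right) and 1 for the control side (left). The control ganglia came from the uninoculated side of tumor-bearing animals, so both groups shared the tumor as a whole-body exposure. How many rats contributed, the level of the ganglia and any sham injection are not given in the sources used here. The members were 18 listed genes together with every gene whose symbol began with RT1-, Ifit, Ifitm, Oas or Irf and a digit, which gave 56 of 14217 genes with a probe set of their own. Of these 56, 18 were interferon-induced genes, 7 interferon regulatory factors, 19 genes of class I presentation, 9 genes of class II presentation, and 3 IRF2-binding proteins that entered through their symbol alone.

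Interferons are signals released when cells sense viral or misplaced nucleic acid. Type I interferon acts through IFNAR and the kinases JAK1 and TYK2, and a complex that holds STAT2 and IRF9 then binds the interferon-stimulated response element (ISRE) in promoters of antiviral genes. Interferon gamma acts through IFNGR and the gamma activated site (GAS) of promoters, and is the best known inducer of antigen presentation. Class I molecules, found on nearly all cells, pair a heavy chain with B2M and show peptides cut by the proteasome and carried in by TAP. Class II molecules show peptides from endocytosed material and are mainly found on macrophages, dendritic cells and B cells. In the rat both kinds of chain are encoded in the RT1 complex. Ganglia hold resident macrophages, while neurons are known for low class I levels.

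What the members share in sequence was read from RefSeq promoter windows of the assembly GRCr8, each 300 bases long, with 250 before and 50 after a transcription start. Of the 56 members, 46 had at least 1 window, 48 windows in all. The ISRE letters GAAANNGAAA stood on either strand in 18 of the 48 windows (37.5%) and in 1312 of all 33469 windows (3.92%). They were found in 8 of 14 windows of interferon-induced genes and 8 of 18 of class I genes, but in 1 of 7 of class II genes, that of Ctss. The members were chosen as genes of this response, so a higher share of ISRE or GAS letters is no finding of these data. Examples from the interferon-induced genes, the interferon regulatory factors and class I are shown for reading beside the signals below, with the matched letters in capitals. A match that starts and ends with TTTC is the same element read from the other strand, and Oas1a holds a pair of overlapping matches.
Oas1a (chr12:41330413-41330452, + strand): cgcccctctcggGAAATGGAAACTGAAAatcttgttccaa
Gbp2 (chr2:234005684-234005717, + strand): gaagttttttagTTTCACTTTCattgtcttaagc
Irf7 (chr1:205800071-205800104, - strand): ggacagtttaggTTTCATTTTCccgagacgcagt
Rsad2 (chr6:48788246-48788279, - strand): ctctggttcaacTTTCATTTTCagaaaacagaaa
B2m (chr3:129549168-129549201, + strand): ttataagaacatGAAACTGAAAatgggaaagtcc
Tap1 (chr20:4668643-4668676, - strand): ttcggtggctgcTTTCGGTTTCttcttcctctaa
Psmb8 (chr20:4657014-4657047, - strand): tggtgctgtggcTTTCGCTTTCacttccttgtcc
RT1-S3 (chr20:2675404-2675437, + strand): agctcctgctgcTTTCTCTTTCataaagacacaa

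Among those shown, the first match began between 150 bases (B2m) and 4 bases (Psmb8) before the start. GAS letters, TTCNNNGAA, stood in 9 of 48 member windows (18.8%) and in 8.87% of all windows, among them those of Irf1, Irf8 and Irf9. Class II genes are known for a different promoter layout, an X box followed by a Y box, which is read by RFX factors, NF-Y and the transactivator CIITA. The letters AGNNACNGATG followed within 30 bases by GATTGG on the same strand occurred in 6 of 33469 windows. These were the windows of 3 members, RT1-Bb, RT1-Da and RT1-Db1, of the further class II genes RT1-Db2 and RT1-DOb, and of Slc4a5. The letters were written with class II promoters in mind, so their presence there is no finding of these data. The X and Y letters are in capitals, 21, 22 and 21 bases apart in the order shown.
RT1-Bb (chr20:4604169-4604218, - strand): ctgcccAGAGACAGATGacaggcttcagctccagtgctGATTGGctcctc
RT1-Da (chr20:4515326-4515376, + strand): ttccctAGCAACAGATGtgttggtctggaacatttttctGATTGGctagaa
RT1-Db1 (chr20:4560232-4560281, - strand): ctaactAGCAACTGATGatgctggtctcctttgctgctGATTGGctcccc

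Y box letters alone were frequent, with 14.8% of all windows and 8 of 11 windows of class I chains. A match is a description of letters, and binding was not measured.

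On the arrays the members differed little between the sides. Signals are MAS 5.0 intensities on a linear scale as deposited by the authors, and a log2 ratio is the log2 of tumor-side signal divided by control-side signal, without a pseudocount. The brightest probe set stood for a gene, and a gene met the signal rule when at least 1 of its signals was not under the array's median (69.0 for control, 72.7 for tumor). Of the 56 members, 44 met this rule, and none of the 44 was at least 2 times higher or lower on the tumor side, where 0.134% and 0.186% of 9695 genes above the rule were. At a fold of 1.5 there was again no member in either direction, against 1.19% and 0.743% of all genes. With background shares this low, 0 calls among 44 genes do not set the members apart. The median log2 ratio of the 44 was 0.11, beside 0.080 for all genes above the rule. Of the 44, 34 (77.3%) had a log2 ratio above 0, against 70.9% of all genes, and 27 of 44 lay above the median gene. Each side was measured once, so no replicate error and no test can be given. As a technical yardstick served the SD of log2 ratios among probe sets that report on 1 gene and lie within a factor of 2 of a given signal. It was 0.25 around a signal of 100, 0.19 around 200, 0.13 around 400 and 0.097 around 1000, and it covers neither animals nor dissections. More than 2 of these SDs above the median gene were 2 members, Mx1 and Ifitm2, and 1 member was as far below, B2m, where 3.79% and 4.71% of all genes were. The median gene is taken over genes of all signals, which matters for B2m, the brightest member.

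**Figure D1:**
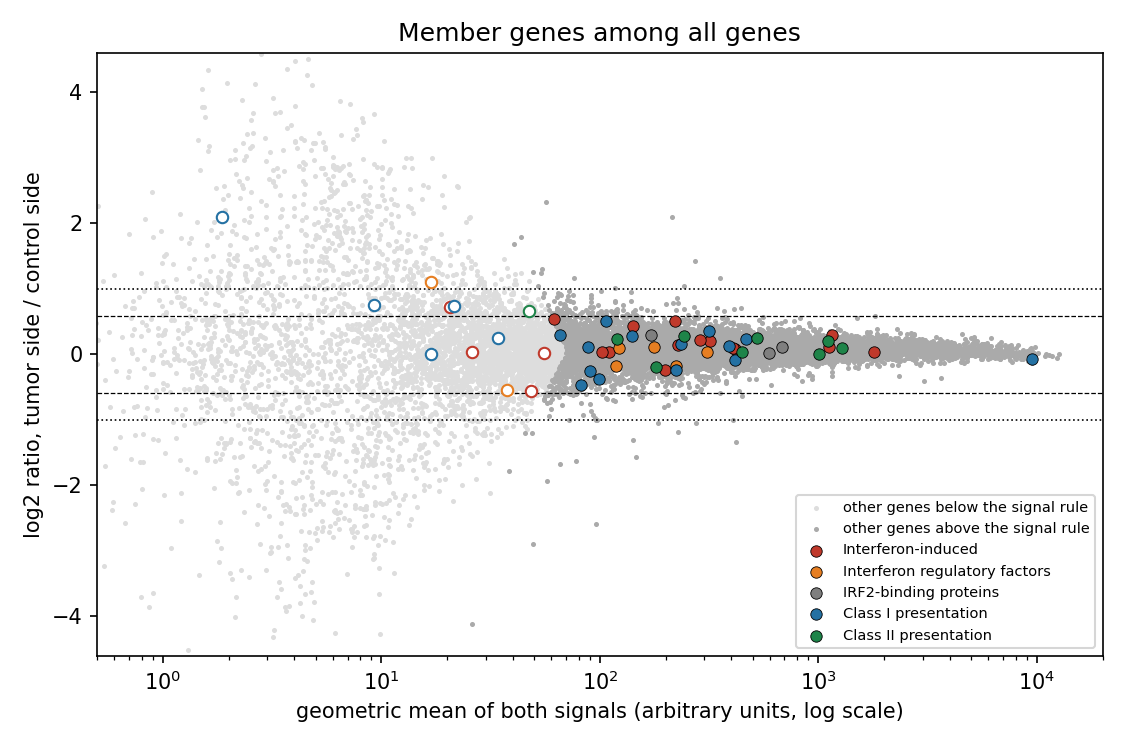
Tumor-side over control-side log2 ratio (vertical) against mean signal (horizontal, log axis), with each gene drawn once (1 array per side), with members coloured by class and open where below the signal rule. Dashed lines mark a fold of 1.5 and dotted lines a fold of 2. All 44 filled points lie inside the dashed lines, the open points scatter more widely, and 21 genes beyond the frame are not drawn.

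Among the interferon-induced genes, 13 of the 14 above the rule had a higher signal on the tumor side, as did 70.9% of all genes above the rule. All were higher by less than a fold of 1.5, and 10 of 14 remained higher relative to the median gene. Mx1, a dynamin-like GTPase that restricts viruses, gave 185 for the control side and 263 for the tumor side, a fold of 1.42 (log2 ratio 0.51). Pairs of signals are given in this order throughout. The ratio of Mx1 was 2.41 SDs between probe sets above the median gene, and 1.67% of the 4261 genes of like signal had a ratio as high. Isg15, a ubiquitin-like modifier, had 122 and 165 (log2 ratio 0.44, 1.72 SDs above the median gene). Oas1a, an enzyme that makes the activator of RNase L, had the largest log2 ratio of the members above the rule, 0.55, with 51.2 and 74.8. Its signals lay at the edge of the rule, which it met through the tumor side alone, and its ratio was 1.40 SDs above the median gene.

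The Ifitm genes encode membrane proteins that block viral entry. Ifitm2 had 1046 and 1283, a log2 ratio of 0.29, which at this brightness was 2.40 SDs above the median gene. Its relatives were closer to the other genes, with 1774 and 1822 for Ifitm1, 1074 and 1163 for Ifitm3 and 401 and 426 for Ifitm10. Mx2, the second Mx gene, had 266 and 309. Ifit2, which binds viral RNA, had 299 and 342 on its brighter probe set and 198 and 234 on the other, so both probe sets gave a like ratio (log2 ratios 0.20 and 0.24).

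Another 4 interferon-induced genes stayed near the median gene. Stat2, a transcription factor downstream of IFNAR, had 217 and 239. Gbp2, a guanylate-binding protein induced by interferon gamma, had 395 and 422. Usp18, which removes ISG15 and restrains the receptor, had 101 and 104. Oasl, an Oas-like protein, had 108 and 111. None of these 4 genes was over 0.34 SDs from the median gene, and Usp18 and Oasl turned lower on the tumor side when the arrays were rescaled by quantiles, by their median or by loess.

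One interferon-induced gene above the rule was lower on the tumor side. Rsad2, which encodes the antiviral enzyme viperin, had 214 and 182 (log2 ratio -0.23, at -1.66 SDs from the median gene). Mx1 and Isg15, known as targets of the same factor complex as Rsad2, were higher on the tumor side. Of these genes only Mx1 was over 2 SDs from the median gene, with Isg15 at 1.72 SDs. The difference in direction between Isg15 and Rsad2 is therefore not settled, and the part of the complex was not tested. Below the rule, Ifit1 had 58.7 and 39.9 and Ifit3 had 15.9 and 26.4. Ifih1, the double-stranded RNA sensor MDA5, had 55.0 and 55.6, and Oas1b had 25.8 and 26.3. The median log2 ratio of the interferon-induced genes was 0.13 over the 14 above the rule and 0.10 over all 18.

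**Figure D2:**
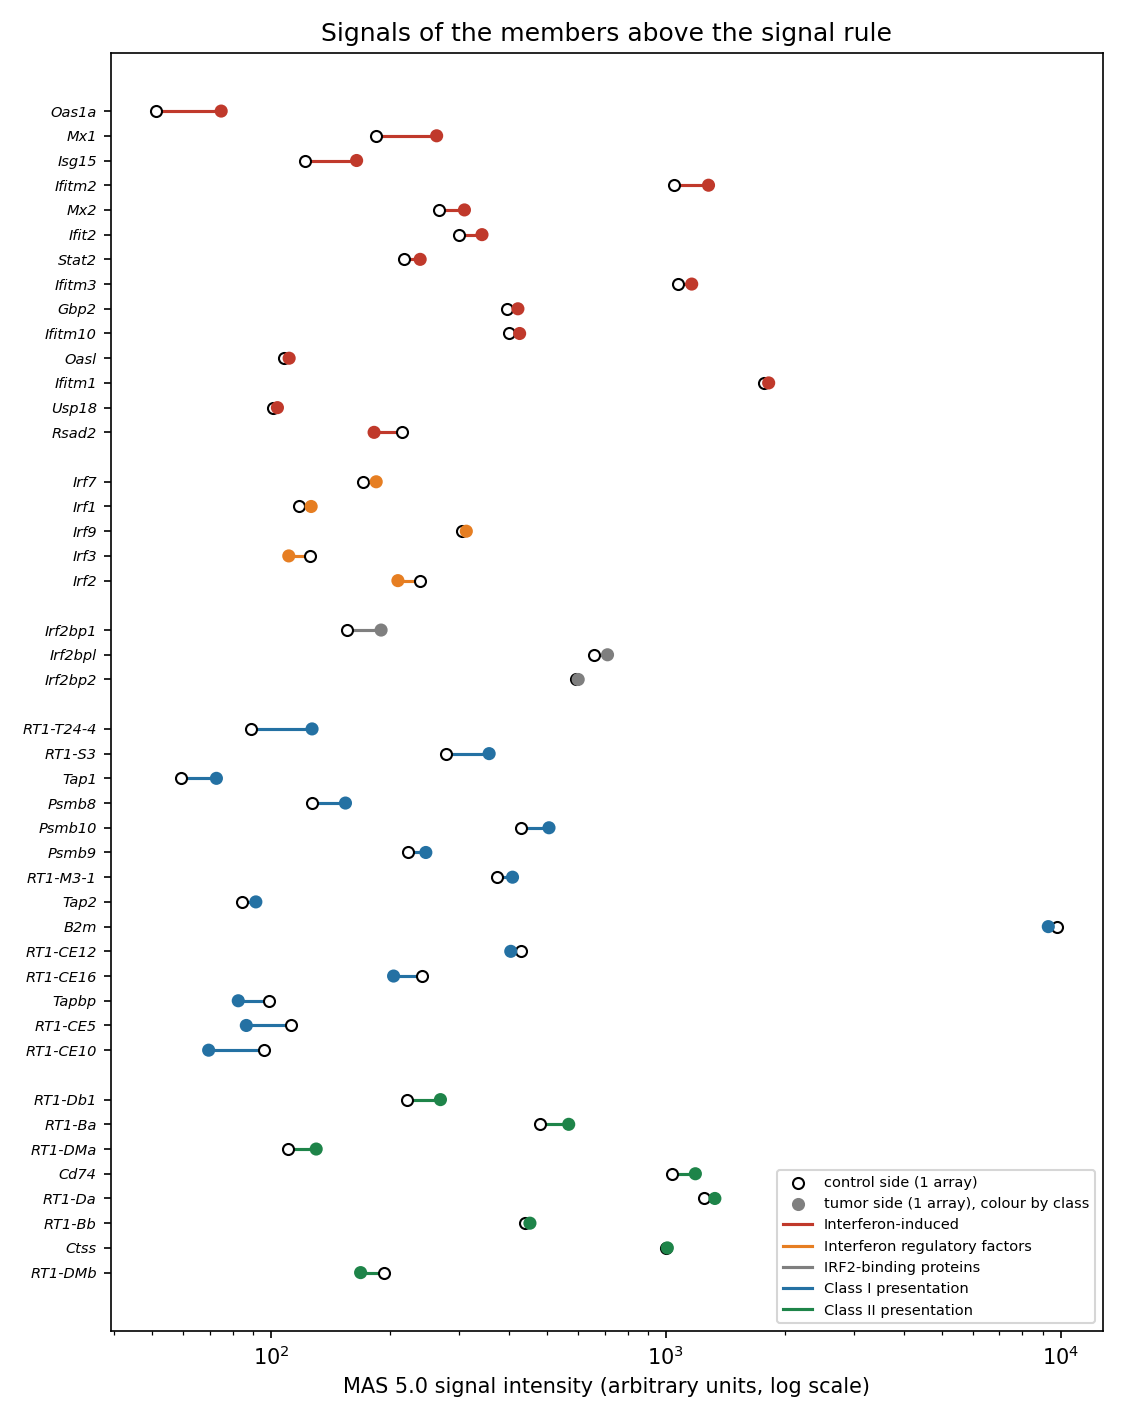
MAS 5.0 signal intensity on a log scale for the 44 members above the signal rule, 1 row per gene, ordered by log2 ratio within each class. Open circles are the control-side array and filled circles the tumor-side array, so a filled circle to the right means a higher tumor-side signal. Most lines are short, Oas1a, Mx1 and Isg15 head the interferon-induced genes, and the RT1-CE chains are at the lower end of class I.

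The interferon regulatory factors (IRFs), transcription factors that switch interferon genes and their targets, were split. Irf7, the factor that amplifies type I interferon production, had 171 and 185. Irf1, an early target of interferon gamma, had 118 and 126. Irf9, which binds DNA together with STAT2, had 305 and 312 on the brighter probe set, whereas the dimmer one pointed the other way with 124 and 109. Irf2, which opposes IRF1, had 238 and 210 (log2 ratio -0.18), and Irf3, which responds to nucleic acid sensors, had 126 and 111 (log2 ratio -0.18). The lowest of these 5, Irf2, was at -1.51 SDs from the median gene. Its dim probe sets, with 1.15 and 2.32 and with 0.837 and 1.20, were below the brightest bacterial control probe set (5.39 and 4.63). No direction is read from them, although they turned the mean over its probe sets to 0.45. The median log2 ratio of these 5 factors was 0.036, and it fell to about -0.05 with each rescaling. The IRFs of myeloid cells were below the rule and opposite in direction, with 11.5 and 24.8 for Irf5 and 45.4 and 31.1 for Irf8. The IRF2-binding proteins, co-regulators that are not IRFs, had 156 and 190 for Irf2bp1, 594 and 600 for Irf2bp2, and 657 and 712 for Irf2bpl. A dimmer probe set of Irf2bp2, also above the rule, pointed the other way with 133 and 106. The mean over the probe sets of Irf2bp2 was -0.15.

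Class I genes had the widest range of the classes above the rule, with log2 ratios from -0.46 to 0.51, and 8 of 14 were higher on the tumor side and 6 lower, where 70.9% of all genes above the rule were higher. The immunoproteasome subunits, which replace constitutive subunits to change the peptides that are cut, were all higher. Psmb8 had 127 and 154, Psmb9 had 222 and 247, and Psmb10 had 431 and 506, with a median log2 ratio of 0.23. Each lay within 1.15 SDs of the median gene. Of their constitutive counterparts, Psmb7 had 1622 and 1872 and Psmb5 had 3673 and 3711, with log2 ratios of 0.21 and 0.015. The ratio of Psmb7 thus lay within the range of the immunoproteasome subunits.

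Peptide transport and loading did not go one way. Tap1, a chain of the peptide transporter, had 59.0 and 72.7 and met the rule by a margin of less than 1 unit of signal on the tumor side. Tap2, the other chain, had 84.6 and 91.5. Tapbp, tapasin, which holds the heavy chain at the transporter, had 99.0 and 82.6 (log2 ratio -0.26, at -1.28 SDs from the median gene). B2m, the light chain, was the brightest member, with 9815 and 9305 on one probe set (log2 ratio -0.077, at -3.79 SDs from the median gene) and 2151 and 2330 on the other (log2 ratio 0.12). The probe sets of B2m therefore disagreed in direction, and the spread at the brighter signal, 0.041, rests on 14 genes. Of 250 genes of like signal, 3.20% had a ratio as low as the brighter probe set. Calca, Pmp22 and Dcn, about as bright, had log2 ratios of 0.026, -0.021 and -0.022, also below the median gene. After quantile normalization the log2 ratio of B2m was -0.067. Its brighter probe set is one that can match several transcripts.

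The class I heavy chains above the rule did not go one way, and none was over 2 SDs from the median gene. On their brightest probe sets, all 4 RT1-CE chains above the rule were lower on the tumor side, as they were after each rescaling. RT1-CE10 had 95.8 and 69.5 (log2 ratio -0.46) and reached an array median only in the control, where it is high. RT1-CE5 had 113 and 86.6 (-0.38), RT1-CE16 had 241 and 204 (-0.24), and RT1-CE12 had 430 and 405 (-0.087). These 4 lay between -1.87 and -1.24 SDs from the median gene. By contrast, RT1-S3 was higher on each of its 4 probe sets, with 277 and 357 on the brightest, 205 and 232, 193 and 222, and 111 and 144. Its brightest probe set had a log2 ratio of 0.36, 1.75 SDs above the median gene. RT1-T24-4 had 89.2 and 127 (log2 ratio 0.51), and RT1-M3-1, the chain that presents formylated peptides, had 375 and 409. The probe sets that stand for RT1-T24-4 and the RT1-CE chains are of the kind open to cross-hybridisation, and these chains are near-identical in sequence and vary between rat strains, so the signal of one can come from another and their values are uncertain. The 4 RT1-CE probe sets are not independent measurements for the same reason. Among the windows of class I chains, the ISRE letters were found in those of RT1-S3 and RT1-N3 alone. The chains without them include the RT1-CE chains but also RT1-T24-4 and RT1-M3-1, which were higher on the tumor side.

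Below the rule, RT1-A had 16.7 and 27.9, RT1-A3 had 31.4 and 37.2, RT1-N3 had 16.8 and 16.9, and RT1-T24-3 had 7.11 on the control side with a log2 ratio of 0.76. RT1-N2 had 0.901 and 3.84, below the brightest trp probe set (5.39 and 4.63), a control for a bacterial transcript, so no fold is given for it. RT1-A is known as the classical class I chain of the rat, and its own probe set was thus dim on both arrays. Further dim probe sets of RT1-CE5 had log2 ratios from 0.026 to 1.83, opposite to its brightest one, so that its value turned to 0.50 without probe sets open to cross-hybridisation and to 0.71 as a mean over probe sets. Apart from a tumor-side signal of 10.8, all signals of these dim probe sets lay below the brightest trp probe set. No direction is therefore read from them.

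Class II genes were higher on the tumor side in 7 of 8 cases above the rule, as were 70.9% of all genes above the rule, and in 5 of 8 relative to the median gene. Their log2 ratios had a narrow range, from -0.20 to 0.28. RT1-Da had 1250 and 1331, and RT1-Db1 had 221 and 269 on its brighter probe set, the chains of the same dimer. The other probe set of RT1-Db1, also above the rule, had 204 and 212 (log2 ratio 0.058, below the median gene). RT1-Ba had 479 and 568, and its partner RT1-Bb had 439 and 453. Cd74, the invariant chain that guards the peptide groove, had 1035 and 1188 (log2 ratio 0.20, 1.32 SDs above the median gene). Ctss, the protease that removes the invariant chain, had 999.9 and 1009. RT1-DMa and RT1-DMb form the dimer that exchanges peptides, and these partners went opposite ways, with 110 and 130 for RT1-DMa and 194 and 169 for RT1-DMb. RT1-DMb, at a log2 ratio of -0.20 and at -1.48 SDs from the median gene, was the only class II gene above the rule that was lower. Ciita, the transactivator of class II genes, was below the rule, with 37.9 and 59.9 on one probe set and 49.1 and 46.1 on the other. Its direction was therefore not settled. The genes with the X and Y letters, RT1-Bb, RT1-Da and RT1-Db1, had log2 ratios of 0.043, 0.090 and 0.28 on their brightest probe sets. That of RT1-Bb turned below 0 with each rescaling.

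**Figure D3:**
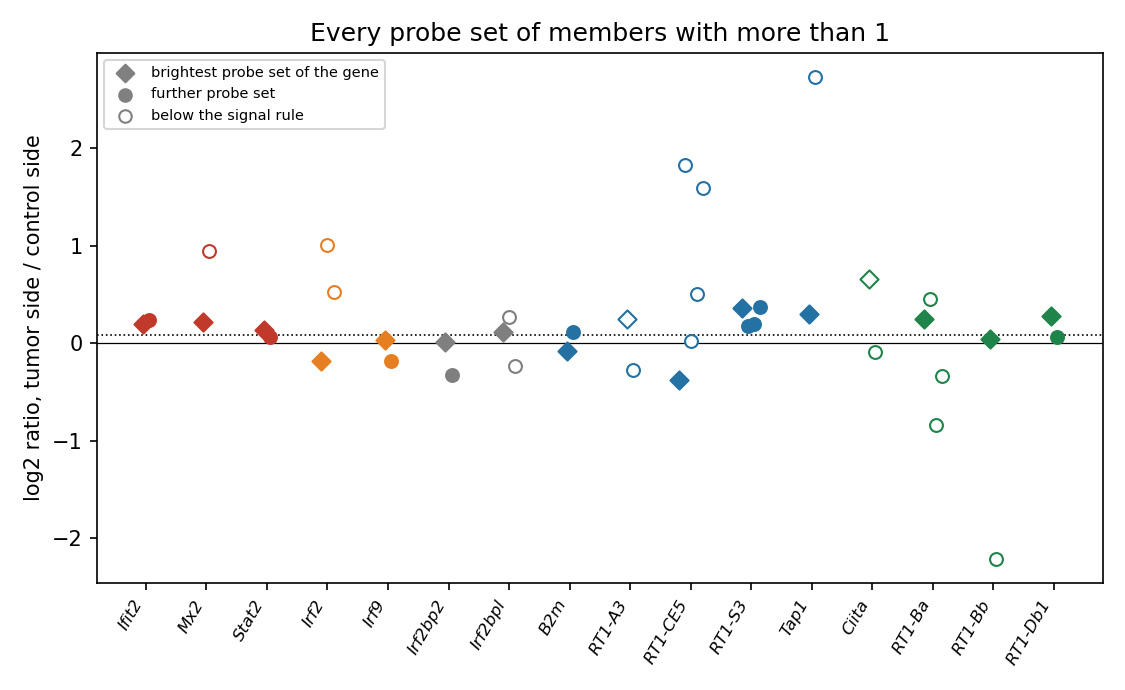
Tumor-side over control-side log2 ratio of every probe set of the 16 members with more than 1, with the brightest as a diamond, further ones as circles, and open symbols below the signal rule. The solid line is 0 and the dotted line the median gene (0.080). The 4 probe sets of RT1-S3 lie together above the lines, and the filled symbols of B2m, Irf9 and Irf2bp2 lie on either side of 0. The extreme values of Tap1, RT1-CE5 and RT1-Bb belong to open symbols.

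Set beside each other, the classes had nearly the same median log2 ratio above the rule, 0.13 for interferon-induced genes, 0.12 for class I genes and 0.14 for class II genes. The class I median minus the interferon-induced one was -0.0069, and the class II median exceeded the interferon-induced one by 0.017 and the class I one by 0.024. Which class stood highest changed when the probe sets of each gene were averaged, with medians of 0.11, 0.14 and 0.052 in the same order. Without the signal filter class II stayed highest, at 0.20. Among members above the rule with a promoter window, 14 genes with ISRE letters had a median log2 ratio of 0.11 (from -0.26 to 0.55). The 23 without them had 0.10 (from -0.46 to 0.51). Isg15, Mx2, Usp18 and Ifit2 had no window and are in neither group, and the window of Mx1 lacked the letters. Whether the element goes with the ratios was not tested.

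The rest of the pathway, from a list of 81 genes of which 65 were measured, gave a like picture. Of the 45 above the rule, none reached a fold of 1.5 in either direction (1.19% and 0.743% of all genes did), and 32 had a log2 ratio above 0, a share like the 70.9% of all genes. The median was 0.079. The interferons themselves were dim, with Ifng at 0.504 and 0.639 and Ifnb1 at 2.69 and 2.16, below the brightest trp control on either array. Among the receptors, Ifnar1 had 92.8 and 106, Ifnar2 had 161 and 139, Ifngr1 had 564 and 574, and Ifngr2 had 371 and 389. The kinases differed little, with 2419 and 2427 for Jak1, 178 and 187 for Jak2, and 129 and 157 for Tyk2. The largest ratios above the rule belonged to Ptpn6, a phosphatase of blood cells, with 63.3 and 84.6, and Igtp, an interferon-induced GTPase, with 127 and 160. Ptpn6 met the rule through the tumor side alone, where it is high, and the log2 ratio of Igtp turned from 0.33 to -0.91 as a mean over its probe sets. The smallest belonged to Ifnar2 and to Myd88, the adaptor of Toll-like receptors, with 161 and 140. That of Ifnar2 turned from -0.21 to 0.050 as a mean over its probe sets.

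Further interferon-stimulated genes, 16 above the rule, had a median log2 ratio of 0.13. Of these, 10 were above 0 and 6 below, where 70.9% of all genes above the rule were above 0. For class I loading and its regulators the median was 0.097 over 9 genes, with 916 and 1014 for Psme1 and 1001 and 1101 for Psme2, the proteasome activator subunits. Nlrc5, the transactivator of class I genes, was below the rule with 28.2 and 32.9. Sensors and adaptors had a median of -0.050 over 5 genes, receptors 0.024 over 5, signalling genes 0.071 over 5, class II processing 0.10 over 3, and the constitutive proteasome 0.11 over 2.

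Markers of macrophages, which carry class II molecules, were slightly higher on the tumor side as well. Of 13 macrophage markers, 10 were above the rule, with a median log2 ratio of 0.18, and 9 of these 10 were higher than the median gene. Their range ran from Cd68 with 88.3 and 79.6 to Tyrobp with 170 and 238. Summed over all 13, the signals came to 2538 and 2927, a fold of 1.15, beside 1.09 for the summed class II genes, 1.10 for the interferon-induced genes, 0.975 for class I genes, 0.987 for the IRFs and 1.05 for all genes. Most of the class I sum is B2m, with 9815 and 9305 of 12530 and 12220, and the probe sets of B2m disagreed in direction. Within class I, the summed fold was 1.04 for the heavy chains, 1.16 for the immunoproteasome subunits and 0.950 for loading genes with B2m. In ganglia as a whole, more macrophages and more RNA per macrophage cannot be told apart, and the part of macrophages in the class II values was not tested.

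Of the dendritic cell markers, 1 of 4 measured was above the rule, Flt3, with 56.8 and 99.2, which met it through the tumor side alone, where it is high. Below the rule, Clec9a had 37.8 and 37.1, Itgax 12.1 and 3.92, and Batf3 7.15 and 11.4. No B cell marker (3 measured) and no T or NK cell marker (10 measured) was above the rule, and Cd79b and Cd3d lay below the brightest trp control on both arrays. Endothelial markers, 3 of 6 above the rule, had a median of 0.20, from Tek with 247 and 279 to Cldn5 with 220 and 265. Markers of the labelled tissue were bright, with 9589 and 9765 for Calca, the gene of CGRP, and 370 and 327 for Isl1. The 8 SN markers had a median of -0.074, all below the median gene. Calca, Prph, Nefh and Tubb3 are among the brightest genes, as are Pmp22 and Dcn, which also lay below it. Isl1, Trpv1 and Scn10a are dimmer. What part brightness has in these values was not tested. Satellite glia had a median of 0.10 (3 genes, from Sox10 with 182 and 176 to Glul with 1538 and 1694), Schwann cells of 0.020 (3 genes, from Pmp22 with 9904 and 9762 to Prx with 1044 and 1132) and fibroblasts of 0.20 (5 genes, from Dcn with 9655 and 9511 to Col1a1 with 1618 and 2113).

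Markers of granulocytes, muscle and bone differed more between the arrays, by their medians, than any member above the rule did, and where in the dissected tissue these transcripts came from was not measured. Granulocyte markers had a median log2 ratio of -1.19 over 3 genes, from Np4 with 223 and 90.5 to S100a9 with 572 and 286. Skeletal muscle genes had -2.18 over 6, from Myl11 with 108 and 6.28 to Acta1 with 397 and 192. Of these, all but Acta1 reached an array median only in the control, where they are high, and the log2 ratio of Myl11, -4.11, was -2.78 with a pseudocount of 11.1. Bone genes had 1.01 over 5, from Ctsk with 346 and 564 to Mmp13 with 103 and 441. Muscle, bone and blood cells carry class I and interferon-induced genes too, and the part of their unequal amounts in the member values was not tested.

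**Figure D4:**
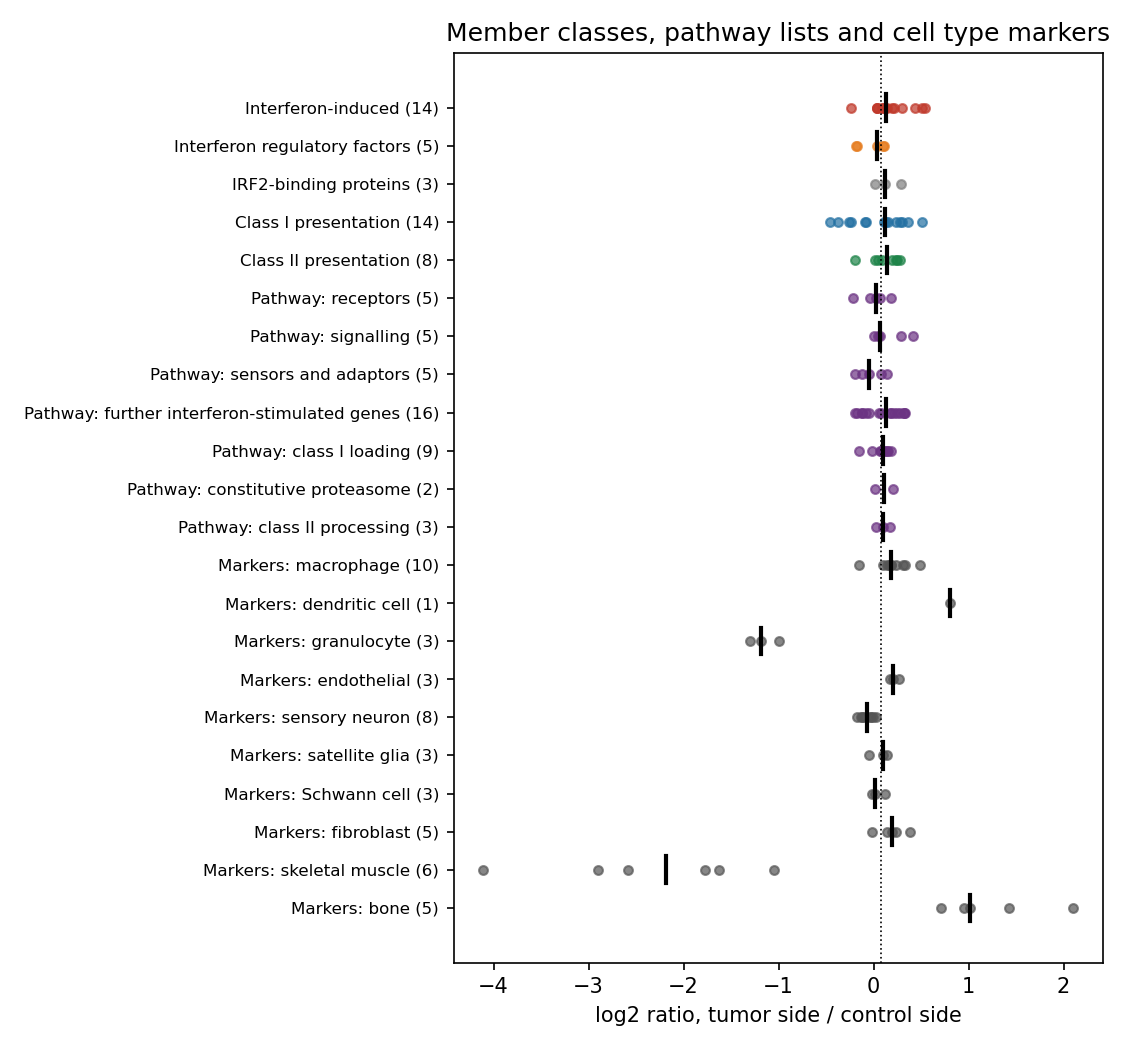
Tumor-side over control-side log2 ratio of genes above the signal rule, 1 point per gene, in the member classes, the pathway lists and the cell type marker lists, with the number of genes in brackets. Vertical bars are list medians and the dotted line is the median gene, 0.080. The member classes and pathway lists stay within a narrow band, while muscle (-2.18), granulocyte (-1.19) and bone markers (1.01) lie far from it.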

How the data were processed

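The authors derived MAS 5.0 signal intensity values with default settings (named MAS5 in the submitters' processing notes) from 1 Affymetrix GeneChip Rat Genome array per side, labelled from 100 ng of total RNA. The 31099 deposited values per array are linear. The deposited values were not rescaled. The sources used here do not give how the arrays were scaled to each other. Detection calls were not used.

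Beside 57 control probe sets, 20826 had 1 gene symbol, 436 several and 9780 were unnamed here. Symbols came from the platform annotation and were looked up through RefSeq synonyms (GRCr8) where a listed gene was not found, which placed Mylpf as Myl11. The members, gene lists, promoter letters and rule for named genes were chosen with earlier results of these data known. Named were all listed members, pattern members above the signal rule, fixed pathway genes, and the extremes of each list. Other genes and the promoters shown were chosen after their values were seen. Alternatives were quantile normalization, median-centring, loess (span 0.3), adding 11.1 (percentile 20) to each signal, other signal filters (none, percentile 75, both signals at or above the medians), leaving out _x_at and _s_at probe sets, the mean over probe sets, and folds of 1.5 and 3. The scripts were tested on simulated data. That there is 1 array per side limits the precision. Software was matplotlib 3.10.9, statsmodels 0.14.6, pandas 2.3.3 and numpy 2.4.6 under Python 3.11.15.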

Additional observations from a re-analysis of the deposited data

How the results depend on the processing

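Scaling moved the class medians by about the shift of all genes (0.080). Interferon-induced, class I and class II medians were 0.0364, 0.0382 and 0.0527 after quantile normalization, 0.0438, 0.0369 and 0.0610 with median-centred log2 ratios and 0.0418, 0.0406 and 0.0582 after loess, and the IRF median turned to -0.05 in each, while signs of 9, 8 and 9 single member ratios turned. Without a signal filter the class II median was 0.20, 0.0938 above the interferon-induced one, and 2 members were at least 2 times higher, Irf5 and RT1-N2, the latter at the level of the trp controls. With the filter at percentile 75, the class II median was 0.0903 and 12 of 19 members lay above the median gene. When probe sets of each gene were averaged, the class II median was 0.0515, the class II minus interferon-induced difference -0.0554 and the class II minus class I difference -0.0870, with 1 member at least 2 times higher (Tap1) and 1 lower (RT1-Bb), both through dim probe sets. The other 75 of 94 summary values stayed within their bounds. For a class median the bound was the spread between probe sets divided by the square root of the number of genes. For a difference the bounds of both classes were combined, and for counts the bound was 1.5 times. Of 378 values of named members, 19 moved by more than the spread between probe sets at their own signal. The median of class I genes was 0.15 over 9 genes without probe sets open to cross-hybridisation, which removes the RT1-CE chains and RT1-T24-4. No paired analysis was possible because the labels give 1 array for either side. Dim signals limit what can be seen, since ratios scatter more widely there.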

Other observations

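Probe sets that name several genes of the member families were left out of the member values, as their signal cannot be given to 1 gene. There were 7. The one above the signal rule, for Oas1g and Oas1i, had 82.1 (control side) and 62.1 (tumor side), opposite in direction to Oas1a. A probe set shared by RT1-A and 4 RT1-CE chains had 28.4 and 71.5, a log2 ratio of 1.33, and another, shared by RT1-A3 and RT1-A2, had 33.3 and 17.6. Class I chains therefore also differed in direction among shared, dim probe sets.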
